A study of Rattus norvegicus with 19 samples.

Results

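Haemoglobin transcripts were followed as a reading of residual blood in each brain sample. The members were 3 Ensembl gene IDs: ENSRNOG00000058105 as Hbb (beta-globin), ENSRNOG00000047321 as Hba-a2 and ENSRNOG00000029886 as Hba-a1 (alpha-globins). They are 3 of the 32883 IDs in the count table, and all 3 were among the 15372 IDs kept by the filter on low counts. The symbols came with the choice of IDs. The RefSeq gene table used here holds an Ensembl ID in 0 of its 47357 rows, so it neither contradicts nor backs these symbols, and no ID was dropped.

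RNA was sequenced from the brains of 19 female Wistar rats on a chow diet, each the daughter of a father from 1 of 4 groups. The groups were control (n = 5), HFD (high-fat diet, n = 4), ELS (early life stress, n = 5) and ELS-HFD (both exposures, n = 5). The series title places the tissue in the amygdala and the sample labels say brain, whole tissue lysate; the design text speaks of male rats, maternal separation and diet, and the sample labels of female offspring were followed. The daughters took an elevated plus maze test on postnatal day 57 ± 1, and their age at the end of the experiment, whether vessels were rinsed, and which daughters had the same father or litter, are not stated in the labels. The p-values therefore cover only the spread among these daughters, siblings possibly included. Library totals ran from 7034837 to 20266594 counts. In 3 libraries, HFD replicate 1 and replicates 2 and 3 of ELS-HFD, the other genes stood apart from the remaining 16 on the first principal component, and the results that turn on them are also given without them.

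Haemoglobin carries oxygen in red blood cells as a tetramer built from alpha and beta chains, each holding a haem group. Mature red cells of mammals have no nucleus, and young ones (reticulocytes) still hold large amounts of globin mRNA, so globin reads in a solid tissue are commonly taken as a sign of residual blood. Low levels of globin mRNA have also been described in neurons and glia. In bulk tissue, fewer cells of a type and less RNA per cell cannot be told apart, and here red cells and brain cells as sources cannot be told apart either. Marker genes of red cells, vessels, choroid plexus and neurons could not be read because their IDs are not paired with symbols, so neither the labelled tissue nor blood content was checked by other genes.

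In the RefSeq annotation of the GRCr8 build the beta-like genes lie together on chromosome 1 and the alpha-like genes on chromosome 10, and Hba-a2 and Hba-a1 are separated there by Hbq1b. The 150 bases before each transcription start (RefSeq, GRCr8, matched by symbol for 3 of 3 members) are shown as a description of the genes. Whether they have a part in the levels of the 3 IDs in these libraries was not tested. Capitals mark matches, on either strand, to the motif CACCC, the motif CCAAT, the motif ATAAA and the motif TATAAA. The motif ATAAA is also the end of the motif TATAAA. The windows are chr1:167663722-167663871 for Hbb, chr10:15829139-15829288 for Hba-a2 and chr10:15842581-15842730 for Hba-a1, all on the minus strand.
Hbb: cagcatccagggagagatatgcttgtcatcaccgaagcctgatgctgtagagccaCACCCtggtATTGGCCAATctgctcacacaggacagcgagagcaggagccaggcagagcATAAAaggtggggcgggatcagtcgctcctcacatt
Hba-a2: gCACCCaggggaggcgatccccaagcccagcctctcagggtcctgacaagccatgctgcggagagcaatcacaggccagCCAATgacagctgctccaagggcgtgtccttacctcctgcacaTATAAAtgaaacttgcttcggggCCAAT
Hba-a1: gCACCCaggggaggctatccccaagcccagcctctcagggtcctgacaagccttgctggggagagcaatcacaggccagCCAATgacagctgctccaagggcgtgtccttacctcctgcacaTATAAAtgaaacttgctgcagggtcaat
Both alpha windows were identical at 144 of 150 bases (96.0%), whereas Hbb matched Hba-a1 at 31 and Hba-a2 at 33 bases when set side by side from the start site. All 3 windows held the motif CACCC, as did 35.2% of 33469 RefSeq promoters of the same length. They also held the motif CCAAT, found in 23.5% of these promoters, and the motif ATAAA, found in 25.7%. The motif TATAAA, in 8.0% of promoters, was in both alpha windows. The motif AGATAA, in 6.0% and searched on both strands, was in 0 of the 3. These matches describe letters, not bound sites. RefSeq lists Hba-a2 as a synonym of Hba-a1 and Hba-a1 as a synonym of Hba-a2, so which of the alpha windows belongs to which ID is uncertain, and reads of near-identical copies can be split or lost in counting.

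The 3 IDs together took 0.011% to 0.0322% of the counts of a library. Values are CPM, counts brought to a common library size by the column sum, and are not scaled by gene length, so they are compared between libraries and not between genes. Hbb, the beta chain, was at 102, 83.0, 57.3, 57.6 and 78.6 CPM in control replicates 1 to 5. In HFD replicates 1 to 4 it was at 106, 40.4, 81.1 and 104 CPM. Within the control and HFD groups the same gene thus spanned a 1.79-fold and a 2.62-fold range. In ELS replicates 1 to 5 Hbb was at 47.8, 49.7, 72.3, 36.6 and 34.1 CPM, and in ELS-HFD replicates 1 to 5 at 92.1, 83.3, 96.6, 62.4 and 108 CPM. ELS replicates 1, 2, 4 and 5 lay below every control library and below every ELS-HFD library. ELS replicate 3 lay inside the control range and above ELS-HFD replicate 4, so neither pair of groups was fully apart. How many of all IDs are split as far is not given here.

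Hba-a1, an alpha chain, was at 104, 102, 75.7, 67.4 and 94.3 CPM in control replicates 1 to 5, and at 158, 60.4, 80.9 and 105 CPM in HFD replicates 1 to 4. In ELS replicates 1 to 5 it was at 64.6, 61.6, 91.0, 48.1 and 62.8 CPM, and in ELS-HFD replicates 1 to 5 at 88.8, 107, 112, 69.5 and 134 CPM. HFD replicate 1 was the highest of all libraries and ELS replicate 4 the lowest, a 3.29-fold range, and the 4 groups overlapped. Hba-a2, the other alpha chain, was at 47.1, 50.05, 32.8, 32.8 and 47.0 CPM in control replicates 1 to 5 and at 57.7, 30.0, 42.8 and 51.3 CPM in HFD replicates 1 to 4. It was at 28.9, 30.0, 46.7, 25.4 and 26.4 CPM in ELS replicates 1 to 5 and at 33.4, 54.7, 53.9, 31.9 and 63.9 CPM in ELS-HFD replicates 1 to 5. ELS-HFD replicate 5 was the highest library for Hba-a2 and for Hbb, and ranked second for Hba-a1.

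**Figure D1:**
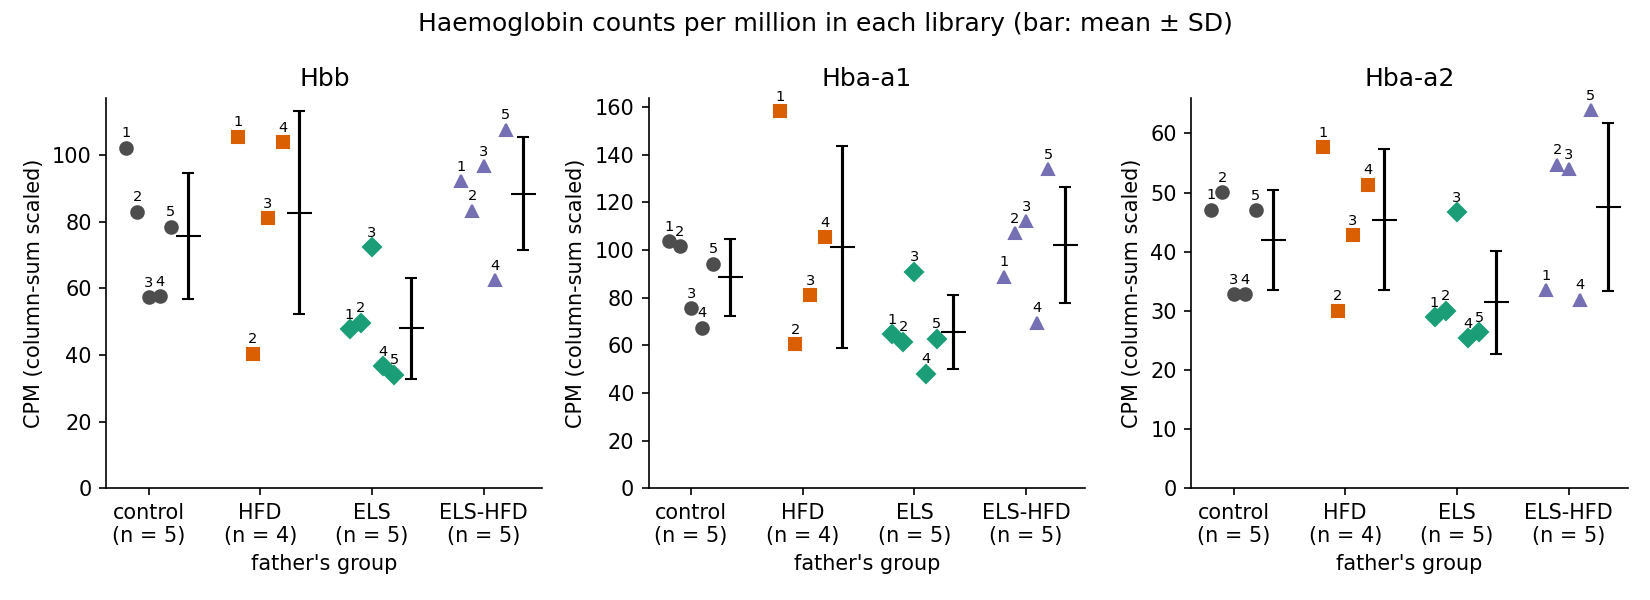
CPM (y axis, scaled by the column sum) of each haemoglobin ID in each library, by the father's group (x axis), with replicate numbers beside the points and bars for the mean ± SD. The ELS points sit low except replicate 3, and every group overlaps its neighbours.

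The order of the group means was the same for the 3 IDs: ELS, control, HFD, ELS-HFD, from low to high. Hbb averaged 48.1 ± 15.2 CPM (SD, n = 5) in ELS, 75.8 ± 18.9 (SD, n = 5) in control, 82.8 ± 30.4 (SD, n = 4) in HFD and 88.4 ± 17.0 (SD, n = 5) in ELS-HFD. Hba-a1 averaged 65.6 ± 15.6 CPM (SD, n = 5), 88.6 ± 16.2 (SD, n = 5), 101 ± 42.2 (SD, n = 4) and 102 ± 24.4 (SD, n = 5) in that order. Hba-a2 averaged 31.5 ± 8.70 CPM (SD, n = 5), 42.0 ± 8.46 (SD, n = 5), 45.4 ± 11.96 (SD, n = 4) and 47.6 ± 14.2 (SD, n = 5). With library sizes scaled by TMM, a scaling that sets aside the most unequal IDs, HFD stood above ELS-HFD for all 3, at 90.7 against 87.5 for Hbb, 113 against 101 for Hba-a1 and 49.8 against 46.9 for Hba-a2. Without HFD replicate 1 the HFD means were 75.2 CPM for Hbb, 82.2 for Hba-a1 and 41.4 for Hba-a2, each below the control mean, so the order of control and HFD turned on that library. HFD replicate 1 had a TMM factor of 0.772, and the others were between 0.984 and 1.07. No pair of neighbours in this order differed in the test described next.

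Differences between groups were tested with edgeR's quasi-likelihood test on the whole table, with Benjamini-Hochberg adjustment over all 15372 IDs. For any difference among the 4 groups, 0 of the 3 IDs passed an adjusted p of 0.05 (0% of all IDs did). At an unadjusted p under 0.05 there were 2 of 3, Hbb and Hba-a1, against 11.4% of all IDs. The edgeR adjusted p was 0.436 for each of the 3. Over all 19 libraries the group accounted for 45.0% of the variance of Hbb on the log2(CPM + 1) scale, 34.2% for Hba-a1 and 31.5% for Hba-a2. These shares are not adjusted for the number of groups. With 4 groups and 19 libraries part of such a share arises without any group difference, and the share for other IDs is not given here. Because the 3 IDs vary together, as shown further on, their counts do not add up as separate observations.

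The comparison of ELS-HFD with ELS asks what the father's diet adds to his early life stress. All 3 IDs stood higher in daughters of ELS-HFD fathers, and 0 of 3 passed an adjusted p of 0.05 (0% of all IDs). The edgeR log2 fold change was 0.91 ± 0.27 (SE) for Hbb, a 1.88-fold difference (adjusted p = 0.206). It was 0.67 ± 0.26 (SE) for Hba-a1 (adjusted p = 0.224) and 0.62 ± 0.24 (SE) for Hba-a2 (adjusted p = 0.224). All 3 had an unadjusted p under 0.05, as did 19.8% of all IDs and 8.73% in the higher direction, and the median log2 fold change of all IDs was 0.01. All 5 ELS-HFD libraries lay above the ELS mean for each ID, though for Hba-a2 replicate 4 did so narrowly, at 31.9 against 31.5 CPM. The share of all IDs that do so is not given here. HFD replicate 1 is in neither group but enters the pooled variance. Without it edgeR called Hbb (log2 fold change 0.93, adjusted p = 0.0219) and Hba-a1 (0.69, adjusted p = 0.0262) but not Hba-a2 (0.64, adjusted p = 0.0537), when 15.5% of all IDs were called. A fit to ELS-HFD and ELS alone, which also leaves out HFD replicate 1, called 0 of all IDs. Its edgeR adjusted p was 0.0548 for Hbb, 0.0661 for Hba-a1 and 0.106 for Hba-a2. What sets these fits apart was not tested. With HFD replicate 1 and replicates 2 and 3 of ELS-HFD left out, the values were 0.88, 0.58 and 0.46 for Hbb, Hba-a1 and Hba-a2, with edgeR adjusted p of 0.152, 0.183 and 0.321. Their edgeR unadjusted p was then 0.00701, 0.0168 and 0.0789.

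Paternal HFD averaged over early life sets the 9 daughters of fathers on the diet against the other 10. Again 0 of 3 passed (0% of all IDs), and all 3 stood higher with the diet at an unadjusted p under 0.05, as did 24.3% of all IDs, 14.1% in that direction. The edgeR log2 difference was 0.59 ± 0.19 (SE) for Hbb (adjusted p = 0.147), 0.52 ± 0.19 (SE) for Hba-a1 (adjusted p = 0.149) and 0.44 ± 0.17 (SE) for Hba-a2 (adjusted p = 0.163). The value for Hba-a1 was 0.30 without HFD replicate 1 (adjusted p = 0.318). In that fit the edgeR unadjusted p was 0.0213 for Hbb, 0.0537 for Hba-a1 and 0.0701 for Hba-a2. With HFD replicate 1 and replicates 2 and 3 of ELS-HFD left out, the values were 0.44 for Hbb, 0.24 for Hba-a1 and 0.23 for Hba-a2, with edgeR adjusted p of 0.480, 0.598 and 0.655. The edgeR unadjusted p was then 0.0456, 0.137 and 0.211, so only Hbb stayed under 0.05 in either of these fits.

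For ELS against control, which asks whether a father's early stress alone goes with a difference, 0 of 3 passed (0% of all IDs). Hbb had an edgeR log2 fold change of -0.69 ± 0.27 (SE), with an adjusted p of 0.913, and was the 1 member of 3 with an unadjusted p under 0.05 (4.35% of all IDs, 2.15% in the lower direction). Without HFD replicate 1, Hba-a1 was also under it, as were 9.19% of all IDs. Hba-a1 was at -0.47 ± 0.26 (SE) and Hba-a2 at -0.45 ± 0.24 (SE), each with an edgeR adjusted p of 0.913. Of the 5 ELS libraries, 4 lay below all control libraries for each ID, the exception being ELS replicate 3. What share of all IDs is split as far is not given here, and the 3 IDs vary together, so they are not separate observations. Paternal ELS averaged over diets gave -0.37 ± 0.19 (SE) for Hbb, -0.31 ± 0.19 (SE) for Hba-a1 and -0.27 ± 0.17 (SE) for Hba-a2, with 0 of 3 passing (0% of all IDs) and an edgeR adjusted p of 0.995 for each, and 0 of 3 at an unadjusted p under 0.05 (2.49% of all IDs). Without HFD replicate 1 these were -0.22, -0.08 and -0.12.

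HFD against control, ELS-HFD against control and ELS-HFD against HFD had 0 of 3 past an adjusted p of 0.05 (0% of all IDs in each) and 0 of 3 at an unadjusted p under 0.05, where 7.79%, 4.18% and 3.38% of all IDs were. For Hbb in HFD against control the edgeR log2 fold change was 0.27, with a 95% interval from -0.31 to 0.86. It was 0.00 without HFD replicate 1 and 0.51 without HFD replicate 2, the highest and the lowest HFD library. Hba-a1 went from 0.36 to -0.09 and Hba-a2 from 0.26 to -0.01 without HFD replicate 1, and to 0.57 and 0.43 without HFD replicate 2. For ELS-HFD against control the values were 0.22 for Hbb (95% interval -0.33 to 0.78), 0.20 for Hba-a1 (-0.34 to 0.74) and 0.17 for Hba-a2 (-0.33 to 0.68). Leaving out 1 library moved Hbb to between 0.14 (control replicate 4) and 0.35 (control replicate 1). It moved Hba-a1 to between 0.11 and 0.31 and Hba-a2 to between 0.07 and 0.28 (ELS-HFD replicates 5 and 4 for both). With the 3 libraries that stood apart left out, the values were 0.19 for Hbb, 0.12 for Hba-a1 and 0.0137 for Hba-a2. For ELS-HFD against HFD they were -0.05 (95% interval -0.64 to 0.54), -0.16 (-0.73 to 0.41) and -0.09 (-0.62 to 0.45), and all 3 turned positive without HFD replicate 1, at 0.24, 0.32 and 0.20.

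The interaction asks whether the difference that goes with the diet depends on the father's early life, and 0 of 3 passed (0% of all IDs). Its edgeR value was 0.64 ± 0.39 (SE) for Hbb, 0.31 ± 0.37 (SE) for Hba-a1 and 0.36 ± 0.35 (SE) for Hba-a2, with an adjusted p of 1 for each and 0 of 3 at an unadjusted p under 0.05 (5.13% of all IDs). It ran from 0.40 without HFD replicate 2 to 0.92 without HFD replicate 1 for Hbb, and without the same libraries from 0.10 to 0.78 for Hba-a1 and from 0.19 to 0.65 for Hba-a2. Without HFD replicate 1, Hbb and Hba-a1 were 2 of 3 at an unadjusted p under 0.05, where 20.2% of all IDs were, with edgeR adjusted p of 0.194 and 0.179. With the 3 libraries that stood apart left out, the interaction was 0.88 for Hbb, 0.68 for Hba-a1 and 0.47 for Hba-a2, with edgeR adjusted p of 0.380, 0.379 and 0.552. The larger difference within the stressed lineages was thus not shown to differ from that without stress. The 8 comparisons reuse the same libraries, so each value is read on its own.

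**Figure D2:**
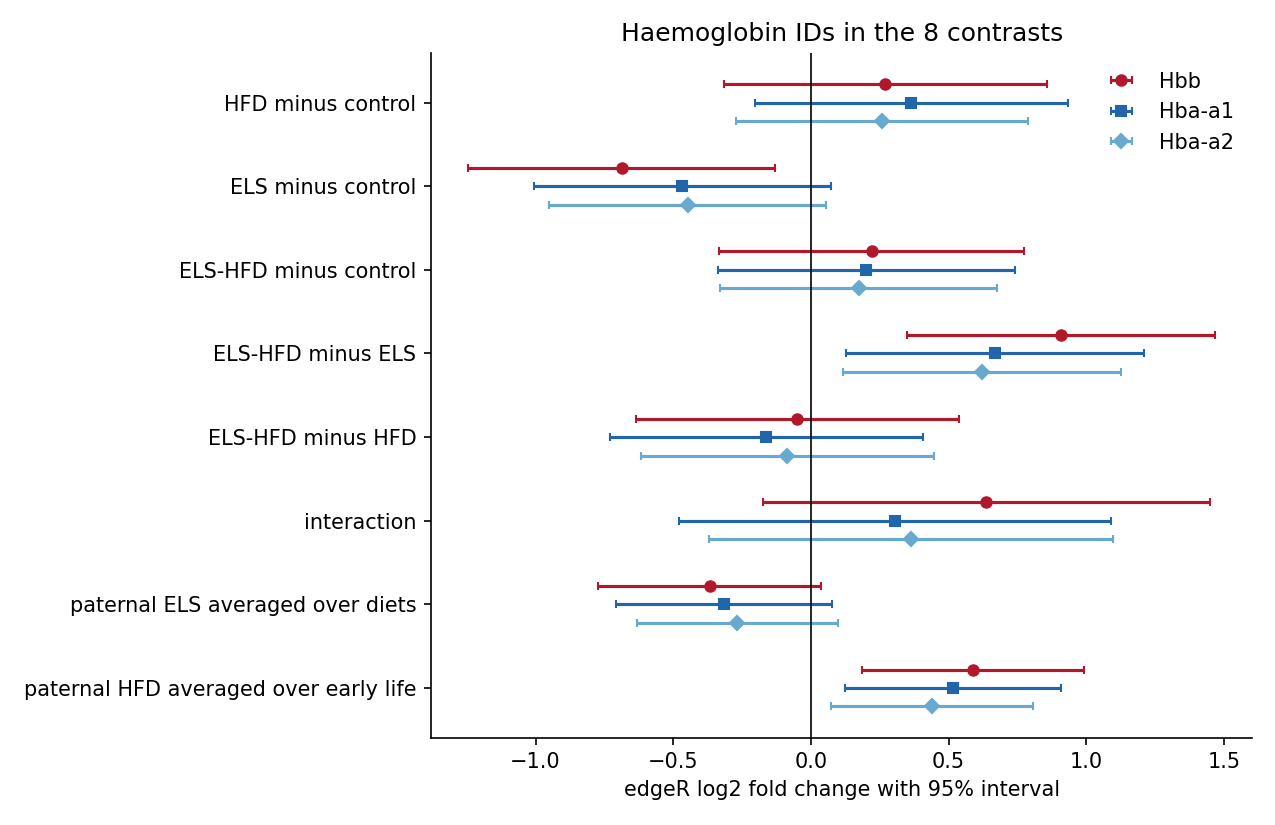
edgeR log2 fold changes (x axis) of the 3 haemoglobin IDs in the 8 contrasts (y axis), with 95% intervals not adjusted for the number of IDs. The 3 IDs take similar values in each contrast, and the intervals stay clear of 0 for Hbb in ELS minus control and for all 3 in ELS-HFD minus ELS and in paternal HFD averaged over early life.

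The 3 IDs followed each other closely from animal to animal. Across the 19 libraries Pearson's r on the log2(CPM + 1) scale was 0.941 for Hba-a1 with Hba-a2, 0.910 for Hbb with Hba-a1 and 0.893 for Hbb with Hba-a2. Spearman's rho was 0.972, 0.935 and 0.928 in that order. Each had a two-sided permutation p of 1e-05, the smallest that 100000 permutations can give, and an adjusted p of 3e-05 over the 9 relations computed. Without the 2 libraries farthest from the median, r was 0.954 for the alpha pair (ELS replicate 4 and HFD replicate 1 left out), and 0.904 and 0.856 for Hbb with Hba-a1 and with Hba-a2 (ELS replicates 4 and 5 left out). One common component held 94.3% of the variance of the 3 standardized IDs.

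The relation held within groups. Measured as deviations from the group means, r was 0.913 for the alpha pair, 0.863 for Hbb with Hba-a1 and 0.844 for Hbb with Hba-a2, and the common component held 91.6%. With the 3 libraries that stood apart left out, r was 0.947, 0.923 and 0.882. No relation to depth was found: against the library total, r was -0.187 for Hbb (permutation p = 0.455, adjusted p = 0.461), -0.183 for Hba-a1 (permutation p = 0.461, adjusted p = 0.461) and -0.307 for Hba-a2 (permutation p = 0.206, adjusted p = 0.265).

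**Figure D3:**
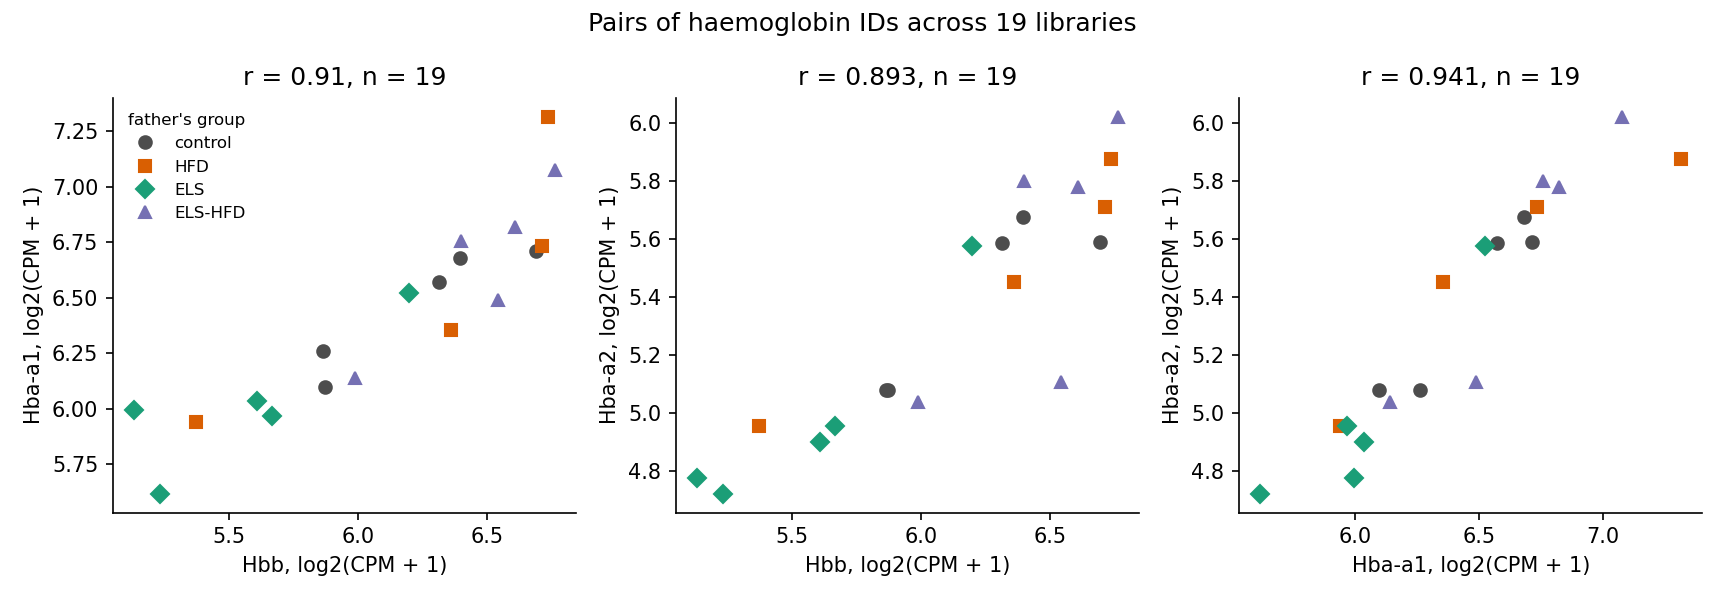
Each haemoglobin ID against another in the 19 libraries, both axes as log2(CPM + 1), with symbols for the father's group. Points of all 4 groups lie along 1 line in each panel, and ELS-HFD replicate 1 lies below it for Hba-a2 against Hbb.

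As a description with no test, the other 15371 kept IDs were ranked by their r with each member. For each of Hbb, Hba-a1 and Hba-a2, the first and second places were taken by the other 2 members. The highest r of an ID outside the 3 was 0.804 with Hbb, 0.843 with Hba-a1 and 0.804 with Hba-a2. The middle 95% of all IDs ran from -0.601 to 0.588 with Hbb. Places 1 and 2 went to the same members with TMM-scaled values, with deviations from the group means, without HFD replicate 1, and without all 3 libraries that stood apart. Each of the 3 IDs was therefore closer to the other 2 in these libraries than to any kept ID outside the 3. Each alpha ID was closer to the other alpha ID than to Hbb. The symbols, which were not checked, place Hbb and the alpha genes on different chromosomes.

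**Figure D4:**
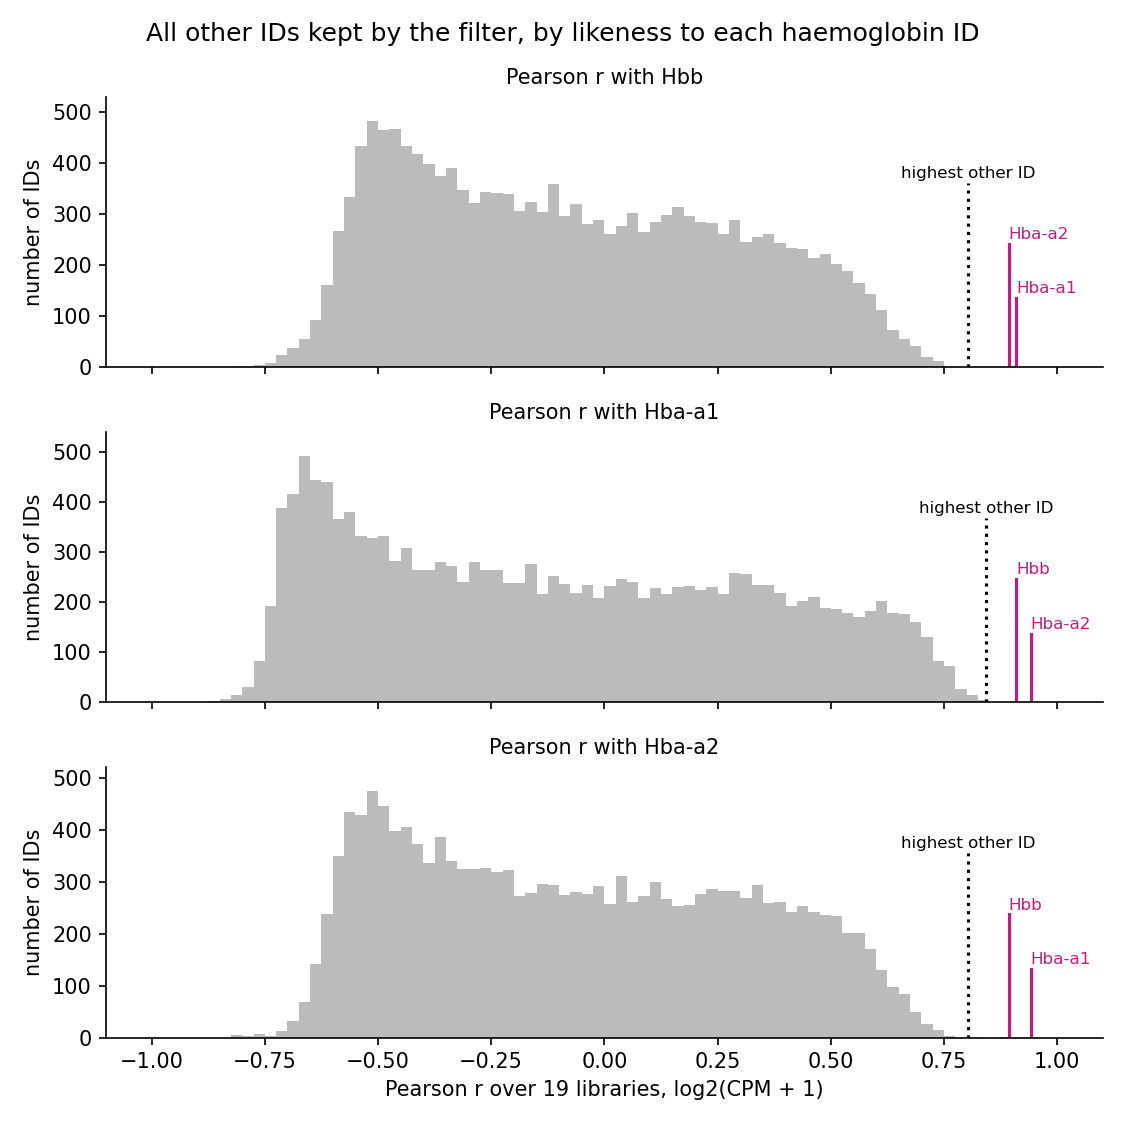
Numbers of IDs (y axis) by their Pearson r with Hbb, Hba-a1 or Hba-a2 over 19 libraries (x axis). The coloured lines mark the other haemoglobin IDs, which lie beyond the dotted line of the highest other ID in each panel.

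Outside the 3, likeness was measured as r with the mean of the standardized members, among 14326 IDs of at least 1 CPM on average. The ID most like them was ENSRNOG00000000431 (r = 0.801), at 68.6 CPM on average in ELS, 79.0 in control, 81.3 in HFD and 83.5 in ELS-HFD libraries, followed by ENSRNOG00000010558 (r = 0.798). At the other end were ENSRNOG00000058217 (r = -0.838), at 2.85 CPM in ELS and 0.719 in ELS-HFD libraries, and ENSRNOG00000051458 (r = -0.837). As these IDs were picked by r in the same libraries, their group means largely follow from the choice and are no separate evidence of a group difference. An r of at least 0.7 was reached by 116 IDs and an r of -0.7 or lower by 102, and these numbers were 29 and 41 without the 3 libraries that stood apart. No symbol is paired with these IDs.

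The spread of the members was large for their level. The SD of log2(CPM + 1) over the 19 libraries was 0.53 for Hbb, 0.44 for Hba-a1 and 0.41 for Hba-a2, against a median of 0.29 over all kept IDs. Hbb varied more than 87.0% of the kept IDs, Hba-a1 more than 78.7% and Hba-a2 more than 75.7%. Among IDs within a factor of 2 of its mean level, Hbb varied more than 90.4% of 3933. With 447 to 2073 counts of Hbb per library, counting error alone gives an SD of 0.049 on the log2 scale, and the SD within groups was 8.77 times that. For Hba-a1 it was 8.82 times and for Hba-a2 5.87 times the counting error.

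Ratios between the members varied much less than the members did, though more than counting error. The ratio of Hbb to the sum of both alpha IDs had an SD of 0.23 on the log2 scale over 19 libraries, where Hbb alone had 0.54 and counting error gives 0.061. It ran from 0.382 in ELS replicate 5 (577 counts against 1511) to 0.754 in ELS-HFD replicate 1 (1223 against 1623). In 8 of 19 libraries the 95% counting error left out the mean, among them all 4 HFD libraries, 2 on either side. The mean log2 ratio was -1.04 ± 0.20 (SD, n = 5) in ELS, -0.85 ± 0.29 (SD, n = 4) in HFD, -0.80 ± 0.14 (SD, n = 5) in control and -0.74 ± 0.21 (SD, n = 5) in ELS-HFD libraries, and these ranges overlapped. The ratio of Hba-a1 to Hba-a2 was steadier, with an SD of 0.15 where counting error gives 0.077. Its 95% counting error left out the mean in 3 of 19 libraries: HFD replicate 1 (2.75), ELS-HFD replicate 1 (2.65) and HFD replicate 3 (1.89). ELS-HFD replicate 1, where Hbb held rank 6 and Hba-a2 rank 11 of 19, and HFD replicates 1 and 3 thus departed from the mean in both ratios. How reads matching both alpha copies were counted is not given. Its part in the ratio of the alpha IDs, and in their r of 0.941, was not tested.

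**Figure D5:**
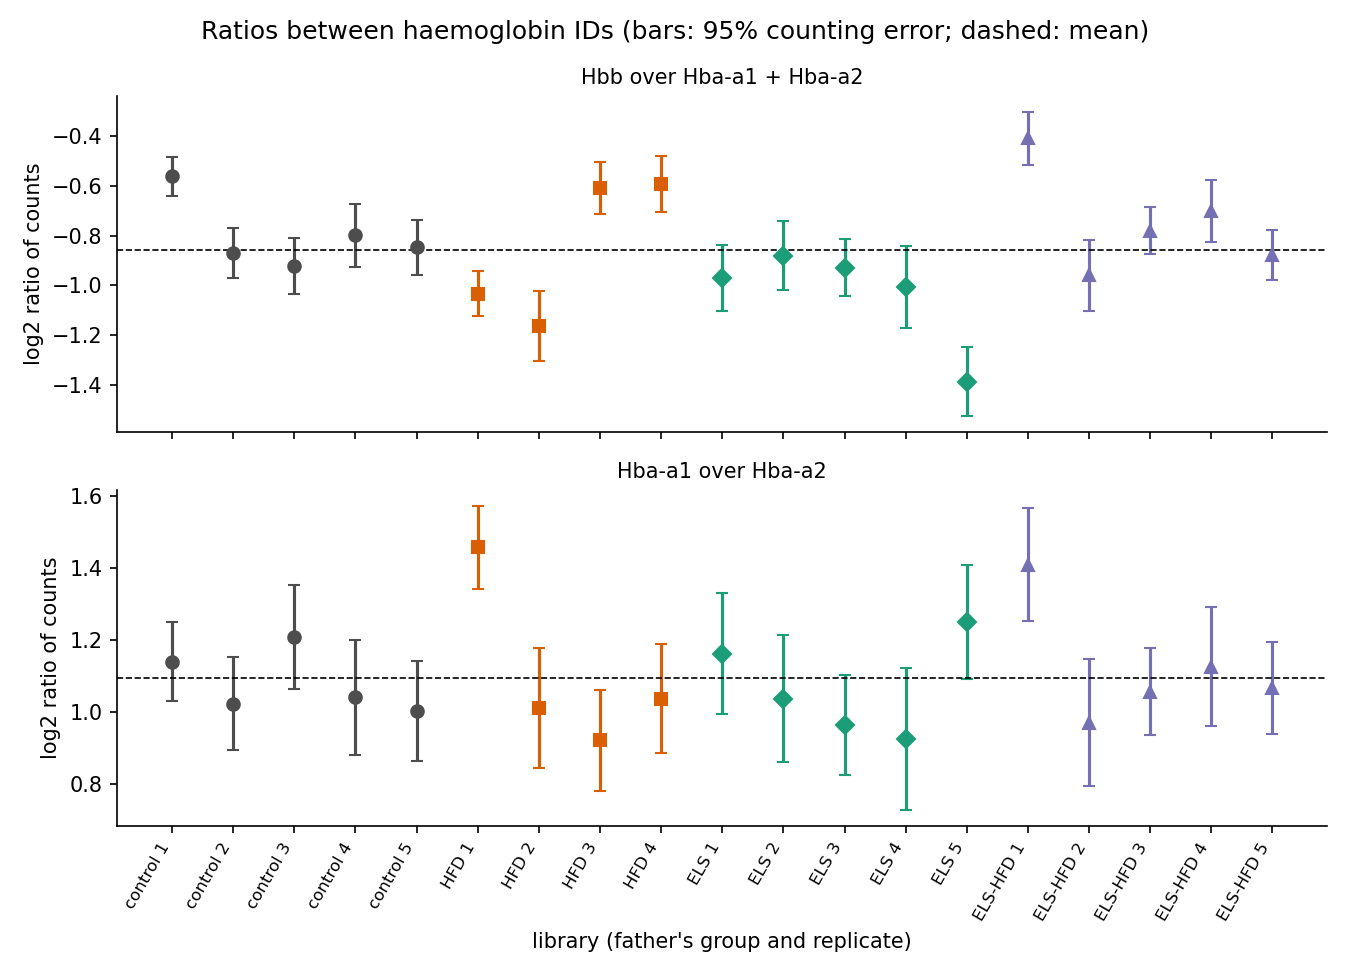
Log2 ratios of counts (y axis) of Hbb to both alpha IDs and of Hba-a1 to Hba-a2 in each library (x axis), with 95% counting error as bars and the mean over 19 libraries dashed. ELS replicate 5 and ELS-HFD replicate 1 mark the ends of the upper panel, and HFD replicate 1 and ELS-HFD replicate 1 are highest in the lower.

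Values of the libraries that stood apart are given beside these results. On the first principal component of all other kept IDs (32.9% of the variance), the score of HFD replicate 1 was 113.67, and replicates 2 and 3 of ELS-HFD had scores of 49.23 and 47.81. Scores of the remaining 16 ran from -29.0 to 10.59. Hbb held ranks 2, 7 and 5 of 19 in these 3 libraries, all above its median of 78.6 CPM, and Hba-a1 held ranks 1, 4 and 3. All 5 ELS libraries were between -29.0 and -19.77 on that component and all 5 ELS-HFD libraries between -16.86 and 49.23. Within the other 16 libraries r between the component and Hbb was 0.570 (permutation p = 0.0222, adjusted p = 0.0499; rho 0.615, adjusted p = 0.0293), and 0.440 (permutation p = 0.117) without ELS replicates 4 and 5, over 14 libraries. For Hba-a1 it was 0.476 (adjusted p = 0.115; rho 0.509, adjusted p = 0.0715) and for Hba-a2 0.370 (adjusted p = 0.237; rho 0.544, adjusted p = 0.0555), both by permutation. These adjusted p run over all 9 relations, which include the 3 pairs of members at a permutation p of 1e-05. The relations to the component were added after seeing the data. Libraries were permuted across groups, so these p do not separate a relation between libraries from differences between groups. What this component measures, and its part in the group differences of haemoglobin, was not tested.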

How the data were processed

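RNA of 19 rat brain samples (about 400 ng each, poly-A selected and randomly primed, per the labels' protocols) was sequenced. The authors deposited raw whole-number counts for Ensembl gene IDs. Rnor_6.0 (build) and DESeq2 (no version) appear in the submitters' processing notes, with aligner, annotation release, strand and treatment of multiply matching reads not given in the sources used here. Each of the 19 columns carries a number found in 1 sample's description, which tied it to that sample. Totals ran from 7034837 to 20266594 counts.

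CPM were computed from column sums. IDs were kept by edgeR's filterByExpr (15372 of 32883), scaled by TMM and tested with edgeR 4.0.16 (R 4.3.3, quasi-likelihood F test, 1 fit over the 4 groups, 8 contrasts and the test of any difference), with calls at a Benjamini-Hochberg adjusted p under 0.05. SEs come from the log2 fold change and its F statistic (size over root F). Correlations used log2(CPM + 1) and 100000 permutations. Counting errors assume Poisson counts and cover counting only. Alternatives were limma-voom (3.58.1), DESeq2 (1.42.0), no filter, no TMM, only the groups compared, the replicate number as a block, and leaving out libraries.

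The members, lists and alternatives were chosen with earlier results of these data known. The named IDs are the 3 members and, since no ID has a symbol, the 2 IDs at each end of the ranking by r with the members. Marker lists for red cells, other globins, haem synthesis and clearance, endothelium, mural cells, platelets and leukocytes, choroid plexus and neurons need symbols and were not tested. The relations to the principal component, the ranks under other settings and the ratio without 1 library were added after seeing the data.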

Additional observations from a re-analysis of the deposited data

Results flagged for a closer look

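Among 20 sets of values (3 members and 2 ratios in 4 groups), 2 contained an isolated library. Chance isolates a library in about 1 of 20 sets, and these sets are related. Hba-a2 was at 46.65 CPM in ELS replicate 3, when the other 4 ELS libraries were between 25.4 and 30.0 CPM; Hbb and Hba-a1 were also highest of the group in that library. The log2 ratio of Hbb to both alpha IDs was -1.389 in ELS replicate 5, below the -1.01 to -0.88 of the other ELS libraries.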

How the results depend on the processing

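The 3 correlations kept their direction and their call in every alternative run (r from 0.875 to 0.957 over the libraries left out in turn). The members' log2 fold changes kept their sign in all 8 contrasts under DESeq2, without the low-count filter and with the replicate block, and none was called there. ELS-HFD minus HFD turned positive without TMM (0.0965 for Hbb, 0.0654 for Hba-a2, 0.0146 for Hba-a1), with limma-voom for Hbb (0.0707), and without the 3 libraries that stood apart (0.193, 0.0209 and 0.212). Leaving out 1 library at a time gave -0.29 to 0.24 for Hbb, -0.26 to 0.20 for Hba-a2 and -0.36 to 0.32 for Hba-a1 in that contrast. HFD minus control turned negative without those 3 libraries (-0.0014, -0.0072 and -0.0948 for Hbb, Hba-a2 and Hba-a1), and leaving out 1 library gave 0.00018 to 0.51, -0.0064 to 0.43 and -0.0938 to 0.566. In ELS-HFD minus ELS leaving out 1 library gave 0.80 to 1.12 for Hbb, 0.52 to 0.82 for Hba-a2 and 0.57 to 0.83 for Hba-a1. Hbb and Hba-a1 were called there without HFD replicate 1 alone, of the 19 libraries left out in turn. The cause was not tested.

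Over all IDs, where edgeR over 19 libraries called 0 in each contrast (with 382 to 3739 at an unadjusted p under 0.05), DESeq2 called 5 in HFD minus control, 1 in ELS minus control, 146 in ELS-HFD minus ELS, 3 in ELS-HFD minus HFD, 5 in the interaction, 1 for paternal ELS, 329 for paternal HFD and 46 for any difference; it called 0 in ELS-HFD minus control, and limma-voom called 0 in each. A fit to HFD and control alone called 3. Leaving out 1 library gave 0 to 2405 calls in ELS-HFD minus ELS, 0 to 12 in the interaction, 0 to 1 for paternal ELS, 0 to 2 for paternal HFD and 0 to 1 for any difference. With the replicate number as a block edgeR called 0 in each contrast, and the log2 fold change of Hbb in ELS-HFD minus ELS was 0.91. The numbers share nothing the labels name: 9 of 27 pairs of same-numbered libraries had deviations correlated above 0.1, and 6 of 19 libraries correlated best with their own number. Depth limits the members little, since each had at least 310 counts in every library.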
